A study of Mus musculus with 2 samples.

Results

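Transition cells are cells of the adult neural stem cell niche that hold an intermediate amount of astrocyte and quiescent stem cell transcripts, between cells rich in them and cells nearly without them. They were chosen by a rule on measured values. A UMI is a molecular tag that counts each captured transcript once. The summed UMIs of Slc1a2, Aldoc, Ntsr2, Cldn10 and Gja1 had to lie from 15 to under 40 per 10,000 UMIs of the cell, a value called the rule sum here. The neuroblast genes Dcx, Dlx6os1, Sp8, Gad2 and Stmn2 had to stay under 10 per 10,000. Fewer than 3 UMIs of Atf3, Cxcl1, Cxcl10 and Irf8, fewer than 5 UMIs of Mag, Mog, Cldn11, Mal and Ermn, and at most 10% mitochondrial UMIs were allowed. The rule kept 280 of 3937 cells. They were compared with cells at 40 or more and cells under 15, which met the same other conditions and are called the flanks.

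The cells came from the lateral subventricular zone of male C57BL/6 mice without any transgene or treatment named in the labels. Tissue of 4 mice aged 2 months was pooled for 1 library, and tissue of 8 mice aged 22 months for the other. Live cells were sorted for GLAST and against O4, Ter119 and CD45, and 8000 sort events per library entered the Chromium 3' droplet workflow. In the deposited matrix each barcode ends in 1 or 2, and no label ties that number to an age, so values are given for library 1 and library 2 and no age is compared. Neither age was replicated, no test was made, and all intervals are exact 95% intervals for counting error only.

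Adult neural stem cells of this niche resemble astrocytes and are mostly out of the cell cycle, a state called quiescence. When activated they express EGF receptor, enlarge their protein synthesis machinery, enter the cell cycle and give rise to transit amplifying progenitors and then neuroblasts. Notch signals between neighbouring cells, through ligands such as Jag1 and Dll1, hold stem cells back from differentiation. GLAST, the glutamate transporter encoded by Slc1a3, is carried by astrocytes and stem cells.

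Library 1 held 117 transition cells, 6.33% of its 1849 cells (interval 5.26 to 7.54%). Library 2 held 163, 7.81% of its 2088 cells (6.69 to 9.04%). Of the cells in the 3 bands together they made up 9.33% (7.78 to 11.1%) of 1254 cells in library 1 and 10.3% (8.88 to 12%) of 1576 in library 2. The flanks held 724 and 544 cells at 40 or more, and 413 and 869 cells under 15. A transition cell had a median of 7115 UMIs in library 1 and 5618 in library 2. That lay between 3500.5 and 3426 in cells at 40 or more and 9293 and 8672 in cells under 15, so depth moved with the rule sum, and its part in the results was not tested. The band rested on few molecules per cell, with a median of 15 UMIs of the rule genes in library 1 and 13 in library 2. The median mitochondrial share was 3.83% and 3.40%.

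The rule sum of the transition cells had a median of 20.7 in library 1 and 22.6 in library 2. The cells nearest the lower limit of the band had rule sums of 13.6 to 14.8 just outside and up to 16.3 just inside in library 1, over 20 cells on each side. There the ribosomal protein genes summed to 184585 CPM outside and 177200 CPM inside, where CPM is UMIs per 1000000 UMIs of the summed cells. At the upper limit of library 1 the same sum was 154450 CPM in the 20 cells just inside and 132561 CPM in the 20 just outside. In library 2 it was 209457 CPM just outside and 185550 CPM just inside the lower limit, and 134470 CPM inside and 136708 CPM outside the upper limit. The band is a range cut from a continuous value and not a cluster. The distribution of the rule sum shows the band as the low stretch between the bulk of both flanks.

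**Figure D1:**
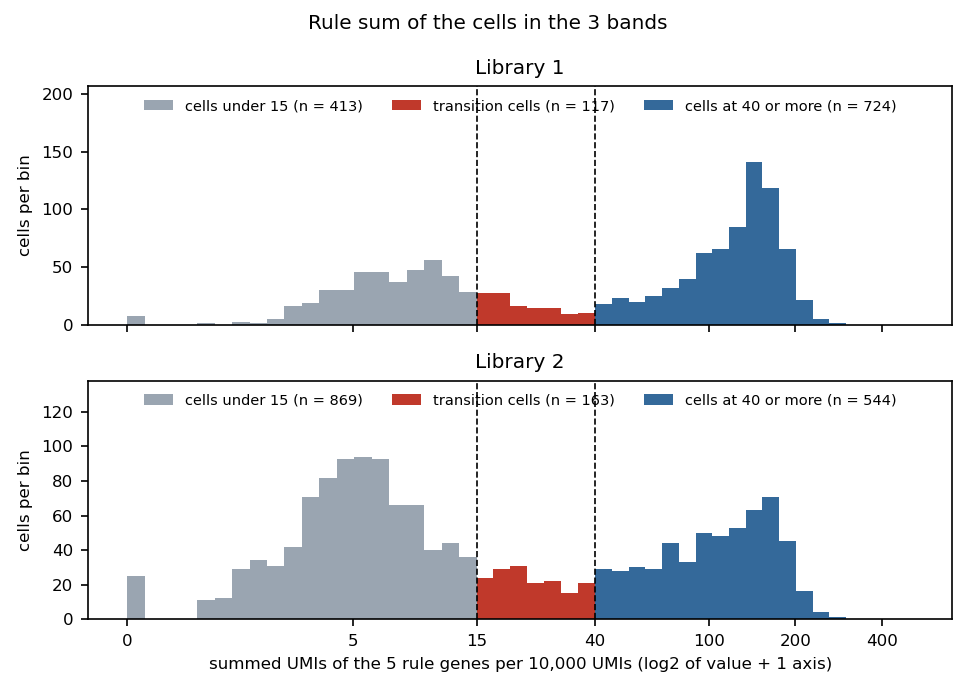
Number of cells (vertical axis) by rule sum, the summed UMIs of the 5 rule genes per 10,000 (horizontal axis, log2 of value + 1), in library 1 and library 2, with dashed lines at 15 and 40. The 117 and 163 transition cells form a low stretch between the cells under 15 and the cells at 40 or more.

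Several conditions of the rule removed cells from the range. Of 187 cells of library 1 with a rule sum in the range, 57 were lost to the limit on stress and chemokine genes, 11 to that on neuroblast genes and 2 to the mitochondrial limit. Of 193 such cells of library 2, 26, 2 and 2 were lost to these limits. No cell in the range was lost to oligodendrocyte genes. Scrublet, a doublet caller, marked 1 transition cell in library 1 and 4 in library 2, against 4 and 3 cells at 40 or more and none under 15. Marked cells were kept, and their removal is among the alternatives. Both libraries shared 4 barcode sequences, none of them on a transition cell.

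The 4 marker genes set for these cells behaved unlike each other. Slc1a3 lay between the flanks, at 2578, 1087 and 402 CPM in cells at 40 or more, transition cells and cells under 15 of library 1, and at 2482, 1364 and 454 CPM in library 2. Among the bands, Egfr, the EGF receptor, was highest in the transition cells. It stood at 88.3, 290 and 175 CPM in library 1 and 57.3, 154 and 107 CPM in library 2. Jag1, a Notch ligand, was also highest there, at 20.6, 61.9 and 18.2 CPM in library 1 and 23.6, 77.9 and 41.5 CPM in library 2. Spry2, a feedback inhibitor of receptor tyrosine kinase signalling, did not separate the transition cells from those under 15. It stood at 167 CPM (interval 141 to 197) against 165 CPM in library 1 and at 130 CPM (109 to 155) against 114 CPM in library 2. The high levels of Egfr and Jag1 were not particular to the band. In cells with a rule sum from 40 to under 60, Jag1 stood at 77.8 CPM in library 1 and 75.8 CPM in library 2. Egfr stood at 252 and 89.3 CPM there. In cells from 10 to under 15, Egfr stood at 223 and 179 CPM, the latter above the 154 CPM of the band. Jag1 stood at 12.5 and 68.7 CPM there. Of the 4 markers, Slc1a3 was intermediate and Spry2 did not mark the band. Egfr and Jag1 were high in the band and next to it, on sides that differed between the libraries.

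After each cell was thinned to 2000 UMIs, an Egfr transcript was seen in 40.7% of transition cells of library 1 (31.6 to 50.4%, 113 cells) and 22.6% of library 2 (16.4 to 29.9%, 159 cells). The same share was 12.4% and 9.63% in cells at 40 or more, and 27.1% (22.9 to 31.7%) and 19.3% (16.7 to 22.1%) in cells under 15, so that in library 2 the intervals of transition cells and cells under 15 overlapped. Cells rich in neuroblast genes, which should lack Egfr, gave 6.64% and 3.97% after the same thinning. Before thinning the Egfr shares were 78.6% and 49.7% in transition cells, 21.4% and 16.5% at 40 or more, 69.7% and 50.6% under 15 and 9.94% and 11.4% in the neuroblast gene cells, at median depths of 3294.5 and 3806.5 UMIs in the latter. For Jag1 the thinned shares were 11.5% and 13.2% in transition cells, 2.94% and 2.75% at 40 or more, 2.93% and 7.63% under 15 and 1.33% and 1.06% in neuroblast gene cells. Unthinned they were 28.2% and 29.4%, 5.25% and 5.51%, 11.9% and 22.8%, and 3.01% and 3.05% in the same order. Thinning left out 4 transition cells in each library, 77 and 35 cells at 40 or more, 4 and 4 under 15 and 31 and 16 neuroblast gene cells. Only a minority of thinned transition cells held a transcript of either gene.

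All contrasts between the bands use cells that the rule separated, so the counts that follow describe the bands and support nothing. A gene was called when its CPM differed at least 1.5-fold the same way in both libraries. It needed at least 20 UMIs in the transition cells and the flank together in each library. Against cells at 40 or more, 1930 of 9674 genes (20%) were higher in transition cells and 1476 (15.3%) lower. Against cells under 15, 1494 of 10244 genes (14.6%) were higher and 620 (6.05%) lower. The median log2 ratio over all genes was 0.16 and 0.11 against cells at 40 or more and 0.14 and 0.08 against cells under 15, in library 1 and library 2.

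Astrocyte and quiescent stem cell genes outside the rule were lower than in cells at 40 or more and higher than in cells under 15. Of 37 such genes measured, 32 were lower than at 40 or more, with median log2 ratios of -2.33 and -1.97. Of 35 measured against cells under 15, 32 were higher, with medians of 1.35 and 1.78. Apoe, which carries lipids between cells, stood at 28022, 5547 and 1879 CPM in library 1 and 23672, 5983 and 1289 CPM in library 2. Glul, the glutamine synthetase of astrocytes, stood at 3269, 604 and 237 CPM in library 1 and 2125, 651 and 211 CPM in library 2. Lhx2, a transcription factor of stem cells, was not called against either flank, at 149, 164 and 148 CPM in library 1 and 129, 138 and 127 CPM in library 2. The rule genes themselves summed to 752 and 554 CPM in cells under 15, close to 674 and 430 CPM in neuroblast gene cells, against 2322 and 2372 CPM in transition cells.

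The genes with the largest ratios against cells at 40 or more were named on each side. On the lower side, with at most 30 UMIs each in the transition cells of a library, they were Fam20a, 2900052N01Rik, Cxcl14, Agt, Cyp4f14, Gjb6, Slc39a12 and Chst1. Gjb6, which encodes the astrocyte gap junction protein connexin 30, stood at 233 CPM in cells at 40 or more and 11.7 CPM in transition cells of library 1, and at 205 and 12.1 CPM in library 2. Agt, angiotensinogen, had no UMI in the transition cells of library 1 and 2 UMIs in library 2. On the higher side they were Opcml, Hist1h2ap, Pdgfra, Gsx1, Olfm2, Vgf, Dll3 and Cenph. Gsx1, a homeobox transcription factor of ventral forebrain progenitors, stood at 7.48 against 106 CPM in library 1 and 2.01 against 37.4 CPM in library 2. Dll3, a divergent Notch ligand, stood at 6.36 against 100 CPM and at 6.03 against 54.6 CPM. Some of these rested on few cells: 1 cell of library 2 held 72.2% of the Pdgfra UMIs, and 1 cell of library 1 held 69.5% of the Hist1h2ap UMIs.

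Genes of the protein synthesis machinery were higher than in cells at 40 or more and mostly not called against cells under 15. All 81 ribosomal protein genes were higher than in cells at 40 or more, with medians of 1.29 and 1.11 on the log2 scale. None of the 81 was called against cells under 15, with medians of -0.13 and -0.14. Their summed level was 68752, 170716 and 188841 CPM in library 1 and 81811, 177862 and 197832 CPM in library 2. Genes of the nucleolus, where ribosomes are assembled, were higher than at 40 or more in 22 of 26, and translation factor genes in 24 of 47. Only 1 of 26 and 1 of 47 were higher than in cells under 15, and 0 of 26 and 1 of 47 lower. Nuclear genes of oxidative phosphorylation were nearly level, with 1 of 76 lower than at 40 or more and 2 higher and 1 lower than under 15. No proteasome gene of 31 and no gene of the mitochondrial genome of 13 was called against either flank.

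Genes of several metabolic pathways lay between the flanks. Of 28 fatty acid oxidation genes, 16 were lower than at 40 or more and 16 higher than under 15. Of the lysosome genes, 20 of 33 were lower and 24 of 34 higher in the same comparisons. For glycolysis, 9 of 20 genes were lower and 1 higher than at 40 or more, and 14 of 20 were higher than under 15. Cholesterol synthesis genes were mostly not called, with 2 of 22 higher and 3 lower than at 40 or more and 2 of 22 higher than under 15. Interferon response genes, which are not metabolic, were nearly level with cells at 40 or more, with median log2 ratios of -0.06 and 0.04. Of these, 3 of 14 were higher and 3 lower than at 40 or more, while 9 of 18 were higher than under 15. Beside these, 20% of all genes were higher and 15.3% lower than at 40 or more, and 14.6% were higher than under 15.

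Cell cycle genes lay between the flanks, and S phase genes lay further along than those of G2 and M phase. All 31 measured S phase genes were higher than in cells at 40 or more, and 20 of 36 were lower than in cells under 15. For G2 and M phase, 24 of 27 genes were higher than at 40 or more and 42 of 45 lower than under 15, with medians against the latter of -2.15 and -1.69. The S phase list summed to 723, 2393 and 4401 CPM in library 1 and 795, 2727 and 4565 CPM in library 2. The G2 and M phase list summed to 1307, 2857 and 9108 CPM in library 1 and 1742, 3769 and 10787 CPM in library 2. Nek2, a centrosomal kinase, Hmmr, a spindle component, and Gtse1 and Gas2l3, which bind the cytoskeleton, were among the 8 genes furthest below cells under 15. Hmmr stood at 1.17 against 40.4 CPM in library 1 and 11.1 against 54.0 CPM in library 2. The 8 also included Bcl11b, Hist1h2ai and Slc25a13, each with at most 4 UMIs in the transition cells of a library. The genes named before them were also thinly counted there. In library 1 and library 2, Gtse1 had 1 and 1 UMIs, Hmmr 1 and 11, Gas2l3 1 and 9, and Nek2 4 and 5.

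Of the D cyclins and G1 entry genes, 8 of 13 were higher than at 40 or more, and 4 of 15 were lower and none higher than under 15. Ccnd2, a D cyclin that partners Cdk4 and Cdk6, stood at 532, 2561 and 3115 CPM in library 1 and 409, 1876 and 3204 CPM in library 2. Ccnd1 was higher in the transition cells than in both flanks of library 1, at 22.1, 219 and 114 CPM. In library 2 it was nearly level with cells under 15, at 12.1, 80.9 and 76.2 CPM. Cdk6, their kinase partner, stood at 27.3, 264 and 376 CPM in library 1 and 29.7, 147 and 318 CPM in library 2. Ccne1 and Ccne2, cyclins of the passage into S phase, had low CPM in the transition cells. Ccne2 lay between the flanks, at 2.62, 12.9 and 42.8 CPM in library 1 and 2.51, 27.3 and 44.5 CPM in library 2.

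Few transition cells held several transcripts of division genes. With 20 genes of S phase and mitosis such as Mki67, Top2a and Ccnb1, chosen after the data had been seen, 12 of 113 thinned transition cells of library 1 had at least 3 UMIs (10.6%, 5.61 to 17.8%). In library 2 it was 32 of 159 (20.1%, 14.2 to 27.2%). The share was 0.464% and 1.96% in cells at 40 or more and 55% and 60% in cells under 15. Oligodendrocyte gene cells, which do not divide, gave 4.04% (4 of 99) in library 1 and 0 of 8 in library 2, which allows up to 36.9% (exact Clopper-Pearson limit). The wider lists of S, G2 and M phase genes could not tell dividing cells. At 3 UMIs they marked 89.4% and 93.7% of transition cells but also 69.7% of the oligodendrocyte gene cells of library 1, so that share is read as background. Within the band the S phase list varied widely from cell to cell, with a median of 11.7 per 10,000, an upper quartile of 30.1 and a highest value of 91.5 in library 1. In library 2 the median was 12.4 and the highest value 94.4.

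The position of each list between the flanks summarises this order. On the log2 scale, 0% is the summed level in cells at 40 or more and 100% that in cells under 15. Nucleolar genes lay at 99.2% in library 1 and 90.4% in library 2, ribosomal protein genes at 90% and 87.9%, and D cyclins and G1 entry genes at 88.1% and 73.2%. S phase genes lay at 66.3% and 70.5%, and astrocyte and quiescent genes outside the rule at 62.3% and 51.9%. Fatty acid oxidation genes lay at 54.9% and 49.6%, G2 and M phase genes at 40.3% and 42.3%, and interferon response genes at 14.8% and 18.2%. The order depends on the scale: as plain CPM differences the S phase list lay at 45.4% and 51.2% and the G2 and M phase list at 19.9% and 22.4%, still with S phase ahead, and the ribosomal protein genes at 84.9% and 82.8%.

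**Figure D2:**
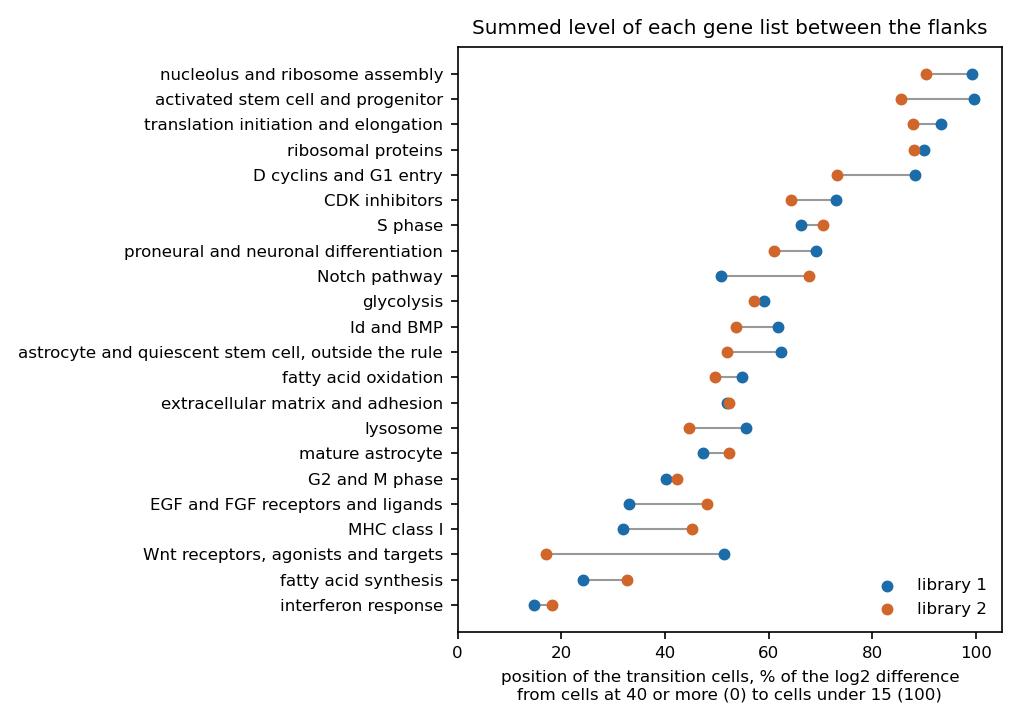
Position of the transition cells between cells at 40 or more (0%) and cells under 15 (100%) on the log2 scale of each list's summed CPM (horizontal axis), for 22 gene lists (vertical axis), with 1 point per library joined by a line. Nucleolar genes lie at 99.2% and 90.4% and interferon response genes at 14.8% and 18.2%.

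A smaller group of genes was not between the flanks but above both. Genes with at least 50 UMIs in the transition cells of each library were compared, a filter that a gene could pass by being high there. Of 2817 such genes, 106 (3.76%) were over 25% above both flanks in both libraries, and 525 (18.6%) were above both at any fold. Among the 12 furthest above were Prss23, Nr4a1, Pde10a, Maff, Nptx2, Btg2, Ppp1r15a, Fos, Fosb, Jag1 and Rcn1.

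Immediate early genes, whose transcripts appear within minutes of a stimulus, made up many of these. Of 33 listed, 24 passed the filter, 21 were above both flanks at any fold and 14 by over 25%. The 14 were Fos, Fosb, Jun, Junb, Jund, Nr4a1, Btg2, Ier2, Klf2, Klf4, Klf6, Zfp36, Zfp36l1 and Maff. Fos, a subunit of the AP-1 transcription factor, stood at 1337, 2665 (2557 to 2777) and 1041 CPM in library 1 and 1296, 3416 (3302 to 3533) and 878 CPM in library 2. Nr4a1, an orphan nuclear receptor, stood at 79.7, 285 (250 to 323) and 75.8 CPM in library 1 and 73.9, 284 (252 to 319) and 42.3 CPM in library 2. Btg2, which restrains proliferation, stood at 506, 1153 and 561 CPM in library 1 and 434, 1318 and 420 CPM in library 2. Egr1 did not follow this pattern and was level with cells under 15, at 259, 1318 and 1357 CPM in library 1 and 253, 1044 and 1073 CPM in library 2. Among the heat shock genes of the list, Hspa8 stood at 1004, 1255 and 1166 CPM in library 1 and 871, 1273 and 1089 CPM in library 2, a small difference beside that of Fos.

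The high immediate early level was found in many cells of the band and also just above it. Fos was seen in 85.0% and 83.0% of thinned transition cells, against 45.1% and 43.4% at 40 or more, 66.3% and 59.0% under 15 and 37.9% and 27.8% of neuroblast gene cells. Unthinned, the shares were 90.6% and 90.2%, 55.7% and 55.0%, 92.5% and 90.2%, and 56.6% and 50.5% in the same order. No single cell held over 4.12% of the Fos UMIs of the transition cells in either library. The summed immediate early list was 158 per 10,000 in the median transition cell of library 1 and 135 in library 2, with lowest and highest values of 17.7 and 545 in library 1 and 22.7 and 659 in library 2. In bins of the rule sum the list reached its highest value in library 1 just above the band, at 19125 CPM in the 60 cells from 40 to under 60, and was 4551 CPM in the 517 cells at 100 or more. In library 2 it was highest at 17121 CPM in the 53 cells from 15 to under 20, was 15235 CPM from 40 to under 60 and 4163 CPM at 100 or more. The contrast with cells at 40 or more therefore rests mostly on cells with a rule sum well above the limit. The stress condition of the rule, which counts Atf3, also touches this group. With each cell thinned to 2000 UMIs before the band was cut, 9 of 21 immediate early genes that passed the filter were over 25% above both flanks, all 9 among the 14, and the genes of all kinds above both flanks numbered 31 in place of 106. Without the stress condition 13 immediate early genes, 12 of them among the 14, were over 25% above both flanks.

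**Figure D3:**
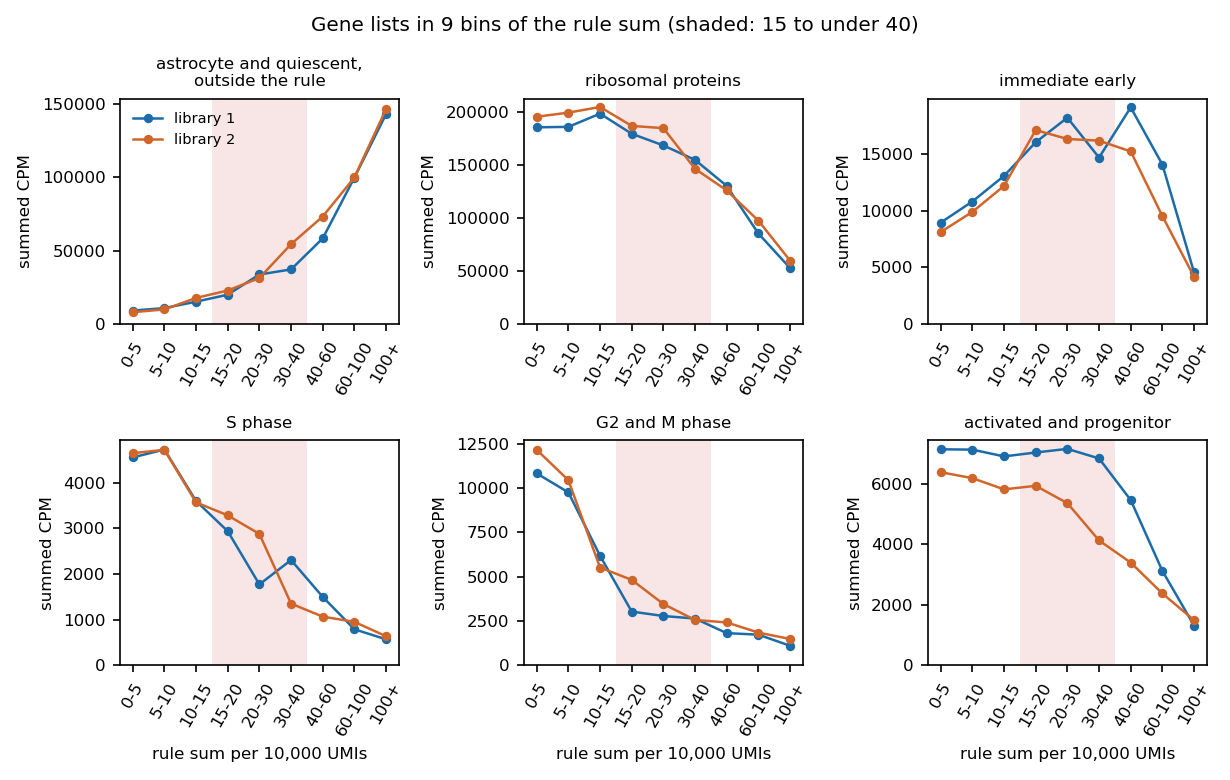
Summed CPM (vertical axes, from 0) of 6 gene lists in 9 bins of the rule sum (horizontal axes), with 1 line per library and the band from 15 to under 40 shaded. The immediate early list is highest inside or next to the band, at 19125 CPM from 40 to under 60 in library 1 and 17121 CPM from 15 to under 20 in library 2, while astrocyte and quiescent genes are highest at 100 or more and the ribosomal, S phase, G2 and M phase and activated lists are lowest there.

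The promoters of 3 of the 12 genes hold TGACGTCA, the full cyclic AMP response element, and are shown because these genes share the pattern. Of the 12, 9 have a promoter entry, from 250 bases before to 50 after the start, from RefSeq on GRCm38.p6. The search used both strands of each window, which for this palindrome are the same. Capitals mark the element. Maff has 3 listed starts, and the window shown is the one of them that holds the element.
Btg2, chr1:134079106-134079405, minus strand: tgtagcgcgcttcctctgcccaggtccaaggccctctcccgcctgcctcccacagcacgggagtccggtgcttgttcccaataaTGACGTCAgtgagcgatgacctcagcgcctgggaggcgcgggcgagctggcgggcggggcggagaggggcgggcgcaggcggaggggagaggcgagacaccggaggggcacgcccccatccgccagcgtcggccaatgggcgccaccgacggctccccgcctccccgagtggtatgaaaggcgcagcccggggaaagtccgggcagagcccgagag
Ppp1r15a, chr7:45526219-45526518, minus strand: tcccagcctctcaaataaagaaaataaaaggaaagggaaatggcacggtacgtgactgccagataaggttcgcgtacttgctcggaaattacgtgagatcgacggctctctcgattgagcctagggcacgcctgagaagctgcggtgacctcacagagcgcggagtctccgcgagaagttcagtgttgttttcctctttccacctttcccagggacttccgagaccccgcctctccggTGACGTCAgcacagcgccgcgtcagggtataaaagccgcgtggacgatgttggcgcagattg
Maff, chr15:79347270-79347569, plus strand: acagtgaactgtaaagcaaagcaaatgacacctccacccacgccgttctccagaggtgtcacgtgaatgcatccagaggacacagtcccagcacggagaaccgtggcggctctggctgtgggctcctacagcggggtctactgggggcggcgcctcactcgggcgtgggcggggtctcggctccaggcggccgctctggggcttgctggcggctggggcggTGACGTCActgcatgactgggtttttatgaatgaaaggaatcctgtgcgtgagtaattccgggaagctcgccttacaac
The element begins 166 bases before the start in Btg2, 12 before in Ppp1r15a and 29 before in Maff. Among all genes with a promoter entry, 549 of 27025 (2.03%) hold it. Among genes compared for lying above both flanks it was 103 of 2174 (4.74%), among those above both it was 8 of 90 (8.89%), and among the immediate early genes 3 of 27 (11.1%). The windows of Fos, Fosb, Nr4a1 and Jag1 do not hold these exact letters. TGANTCA, the AP-1 motif, was found for 1 of the 9 genes, Prss23, in 2 overlapping windows of its several starts, and in 2425 of 27025 genes (8.97%). CAGCTG, an E-box core, was found for Fos, Jag1, Pde10a and Prss23 and in 4944 of 27025 genes (18.3%), and the CArG box, bound by serum response factor, in none of the 9 and in 488 of 27025 (1.81%).

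Beyond the immediate early genes, those furthest above both flanks had varied roles. Prss23, a secreted serine protease, stood at 21.7, 92.3 (73.1 to 115) and 25.1 CPM in library 1 and 16.1, 68.8 (53.4 to 87.2) and 19.0 CPM in library 2. Pde10a, a phosphodiesterase that breaks down cyclic nucleotides, stood at 15, 120 and 37.8 CPM in library 1 and 12.1, 73.8 and 23.2 CPM in library 2. Ppp1r15a, which helps to restart translation after stress, stood at 86.4, 224 and 110 CPM in library 1 and 98.0, 212 and 84.4 CPM in library 2. Each was seen in many cells, Prss23 in 43 of 117 and 44 of 163 and Pde10a in 45 and 39.

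**Figure D4:**
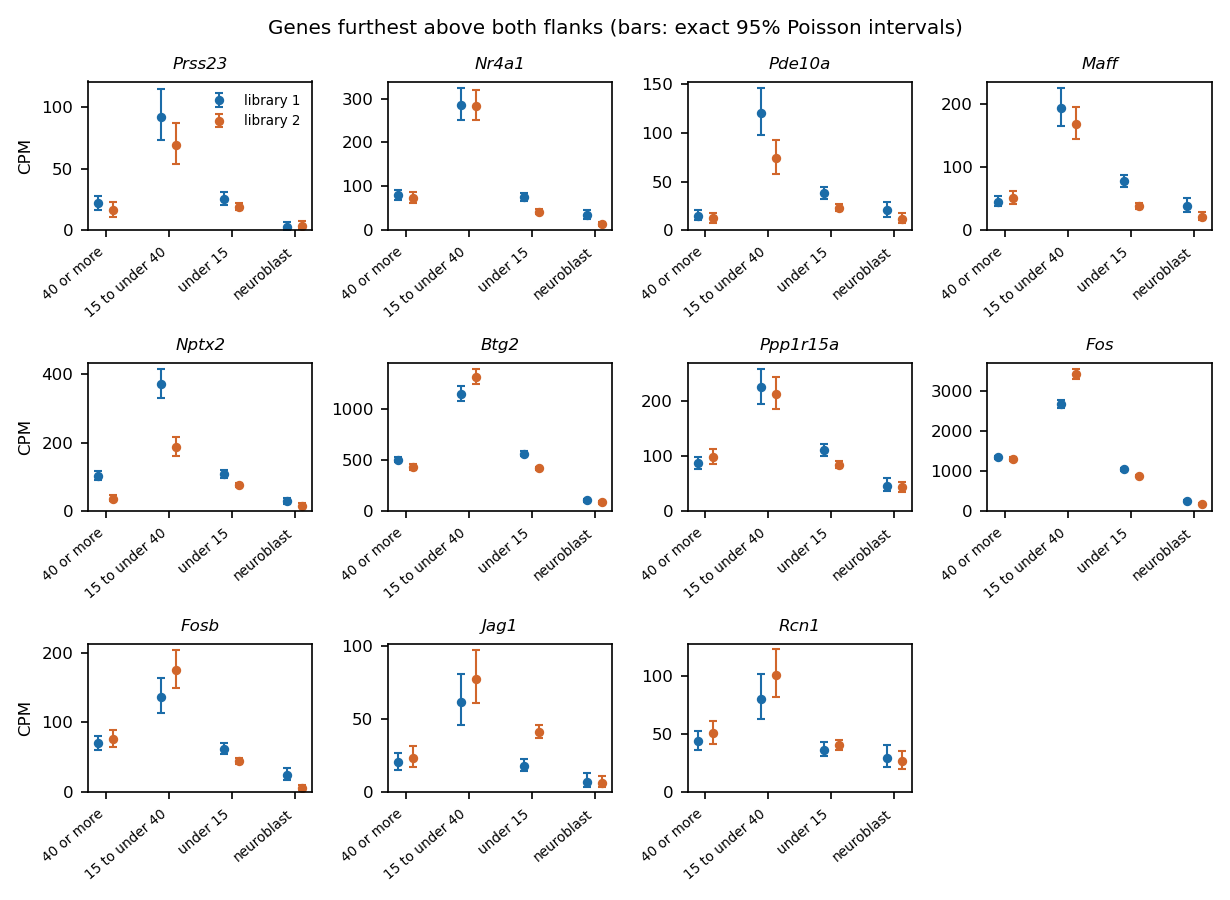
CPM (vertical axes, from 0) of genes among the 12 furthest above both flanks in cells at 40 or more, transition cells (15 to under 40), cells under 15 and neuroblast gene cells, with exact 95% Poisson intervals and 1 colour per library. Nr4a1 stands at 285 and 284 CPM in transition cells and at 75.8 and 42.3 CPM in cells under 15.

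Activated stem cell and progenitor genes were higher than in cells at 40 or more and divided against cells under 15. Of 20 measured, 19 were higher than in cells at 40 or more, and Rgcc, a regulator of cell cycle kinases, was lower. Against cells under 15, 4 were higher and 4 lower. Of 17 that passed the filter for lying above both flanks, 7 did, among them Egfr, Olig2, Dll1, Mycn, Fabp7 and Thrsp. Thrsp stood at 453 and 418 CPM in transition cells of library 1 and library 2. In cells with a rule sum from 40 to under 60 it stood at 597 and 298 CPM, and from 10 to under 15 at 113 and 386 CPM. Fabp7, a fatty acid binding protein of radial glia, stood at 516, 1076 and 450 CPM in library 1 and 709, 1072 and 434 CPM in library 2. Dlx1 and Dlx2, which act later towards interneurons, were far below cells under 15, Dlx2 at 30.3, 78.3 and 438 CPM in library 1 and 39.2, 126 and 439 CPM in library 2. Of 25 genes of neuronal differentiation, 15 of 21 measured were higher than at 40 or more and 15 of 23 lower than under 15. Over all genes, 20% were higher and 15.3% lower than at 40 or more, and 14.6% higher and 6.05% lower than under 15. Of all genes that passed the filter, 3.76% lay above both flanks.

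Most measured receptors and ligands of EGF and FGF were lower than in cells at 40 or more. Of 9 measured genes for EGF and FGF receptors and ligands, 6 were lower than at 40 or more and 2 higher, one of them Egfr, and 4 of 9 were higher and 1 lower than under 15. Fgfr3 stood at 262, 61.9 and 26.4 CPM in library 1 and 216, 43.5 and 17.1 CPM in library 2. Hbegf, an EGF receptor ligand, stood at 62.9, 14.0 and 9.25 CPM in library 1 and 37.7, 9.10 and 4.70 CPM in library 2. Among 13 genes of ERK feedback, 2 of 9 measured were higher and 1 lower than at 40 or more, and 4 of 11 were higher and 1 lower than under 15. The shares of all genes were 20% higher and 15.3% lower than at 40 or more, and 14.6% higher and 6.05% lower than under 15. Dusp6, an ERK phosphatase, stood at 44.9, 81.8 and 45.4 CPM in library 1 and 22.1, 45.5 and 27.8 CPM in library 2.

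Within the Notch pathway the ligand genes Jag1, Dll1 and Dll3 were higher than in cells at 40 or more. Dll1 stood at 20.2, 146 and 108 CPM in library 1 and 13.6, 109 and 80.9 CPM in library 2. Notch1 stood at 110, 172 and 136 CPM in library 1 and 103, 153 and 122 CPM in library 2. Notch2 instead lay between the flanks, at 72.6, 18.7 and 11.4 CPM in library 1 and 108, 88.0 and 26.7 CPM in library 2. Hes5, a target of Notch, lay between the flanks at 1289, 1877 and 3310 CPM in library 1 and 1235, 2360 and 4000 CPM in library 2. Of 21 Notch genes measured, 5 were higher and 1 lower than at 40 or more, and 5 were higher and 1 lower than under 15. Over all genes, 20% were higher and 15.3% lower than at 40 or more, and 14.6% higher and 6.05% lower than under 15. Of 10 that passed the filter, Jag1, Dll1 and Maml2, a coactivator, were above both flanks. Among 22 measured genes of the Wnt list, 3 were higher and 8 lower than at 40 or more, and Nkd1, a feedback inhibitor, stood at 40.8, 116 and 53.4 CPM in library 1 and 30.7, 113 and 66.5 CPM in library 2. Its level was not particular to the band. Cells with a rule sum from 40 to under 60 had 131 CPM of Nkd1 in library 1 and 64.9 CPM in library 2. Those from 10 to under 15 had 77.4 and 104 CPM.

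Only 6 of 4785 genes (0.125%) were over 25% below both flanks in both libraries. They were Smim4, Nuf2, Tpgs2, Hist1h4i, Pcbd2 and Ncam1. Ncam1, a neural adhesion molecule, was the best counted, at 189, 95.8 and 167 CPM in library 1 and 184, 115 and 146 CPM in library 2. The other 5 had 9 to 53 UMIs in the transition cells of a library. None of these 6 was called without cells that had 3 UMIs of division genes, where 3 other genes were, and 1 of the 6 was called when cells were thinned to 2000 UMIs before the band was cut.

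Against cells under 15, the highest named genes were Ass1, Notum, Fam181a, Ecel1, Ccdc80, Ntm, Il11ra1 and Gm10561. Ntm, an adhesion molecule of the IgLON family, stood at 786, 112 and 20.3 CPM in library 1 and 661, 125 and 22.6 CPM in library 2. Gm10561 was level with cells at 40 or more, at 398, 425 and 80.0 CPM in library 1 and 381, 387 and 69.9 CPM in library 2. Notum, a secreted enzyme that inactivates Wnt proteins, stood at 113, 74.8 and 10.6 CPM in library 1 and 74.9, 155 and 22.6 CPM in library 2, below cells at 40 or more in the first and above them in the second.

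The transition cells were then placed among all cells of the 3 bands by their 15 nearest neighbours in 30 principal components of variable genes, within each library. In library 1, 42.1% of a transition cell's neighbours were transition cells, 45.0% were cells under 15 and 12.9% were cells at 40 or more. In library 2 these were 39.8%, 40.2% and 20.0%. Transition cells made up only 9.33% and 10.3% of the cells in these graphs. By majority, 48 transition cells of library 1 lay among their own kind, 53 among cells under 15 and 12 among cells at 40 or more, and 4 had no majority. In library 2 the counts were 66, 62 and 29, with 6 without a majority. The order of own kind and cells under 15 depended on the setting: in library 1 it was 51 against 43 cells with 30 neighbours and 53 against 45 with 15 components, and in library 2 it was 58 against 61 and 64 against 63. Cells at 40 or more had 95.2% and 90.5% of their neighbours in their own band. By design the variable genes were taken from outside the rule genes, the genes of the other conditions and the markers. The bands were still cut from the counts of these same cells, so this is a description.

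The band was not uniform inside. The 80 cells of library 1 from 15 to under 25 had 175779 CPM of ribosomal protein genes and the 37 cells from 25 to under 40 had 161666 CPM. In library 2, 94 and 69 cells had 191023 and 154127 CPM. The S phase list was 2639 and 1955 CPM in library 1 and 3304 and 1687 CPM in library 2. The immediate early list was nearly level, at 16903 and 16031 CPM in library 1 and 16097 and 17488 CPM in library 2. Across transition cells the rank correlation (Spearman) of the rule sum was 0.65 and 0.60 with astrocyte genes outside the rule, -0.13 and -0.35 with ribosomal protein genes and -0.24 and -0.42 with S phase genes. The cells share a library and differ in depth, whose own rank correlation with ribosomal protein genes was 0.44 and 0.45.

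Markers of other cell types differed by type. The 11 microglia, 10 endothelial, 10 mural and 7 fibroblast markers each summed to at most 24.3 CPM in either library, and no transition cell had 3 UMIs of any of these lists. Cx3cr1, Csf1r and Tyrobp were at 0 in both libraries, as were Esam, Cdh5, Tek, Rgs5, Kcnj8, Col1a1 and Dcn. Neuroblast markers, 13 of 13 seen, summed to 816 and 918 CPM in the transition cells, against 500.3 and 557 CPM at 40 or more and 1332 and 1443 CPM under 15, and 90 of 117 and 119 of 163 transition cells had at least 3 of these UMIs. Mature neuron markers summed to 106 and 63.7 CPM, with 9 and 3 such cells. Oligodendrocyte precursor markers, 10 of 10 seen, summed to 389 and 222 CPM, against 110 and 102 CPM at 40 or more and 162 and 164 CPM under 15. At least 3 of these UMIs were found in 17 and 10 transition cells, and in 8 and 4 with Olig1 not counted, with up to 76 UMIs in 1 cell. Ependymal markers summed to 16.4 CPM in library 1 and 217 CPM in library 2, where 14 cells had at least 3 UMIs, against 166 and 250 CPM at 40 or more. Oligodendrocyte markers, 15 and 13 of 15 seen, summed to 422 CPM in library 1 and 138 CPM in library 2. Cells at 40 or more had 589 and 256 CPM of them, and cells under 15 had 384 and 95.3 CPM. Their part in the results was not tested. Without all cells that had 3 UMIs of an oligodendrocyte precursor, ependymal, microglia, endothelial or mural list, 13 immediate early genes were above both flanks, all 13 among the 14. Olig1, a factor of the oligodendrocyte lineage, stood at 223 and 118 CPM in transition cells, where 1 cell held 16.8% and 29.1% of its UMIs.

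Transition cells of both libraries were also compared with each other, a contrast the rule did not use but whose cells it selected. Its stress limit removed 57 of 187 cells in the range in library 1 and 26 of 193 in library 2. Of 3539 genes with at least 50 UMIs in the transition cells of either library, 200 (5.65%) were at least 1.5-fold higher in library 1 and 211 (5.96%) in library 2. Without the stress limit 351 genes were higher in library 1, 136 of them among the 200. In library 2 it was 202 genes, 140 of them among the 211. No test was possible with 1 library on each side. Age, pooled mice and library cannot be told apart, and neither can be assigned here. None of 81 ribosomal protein genes, 41 translation genes, 75 oxidative phosphorylation genes or 17 fatty acid oxidation genes was called.

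Of the genes higher in library 1, Cdkn1c, the CDK inhibitor p57, stood at 64.3 CPM (48.4 to 83.7) in library 1 and 8.09 CPM (3.49 to 15.9) in library 2. Its UMIs came from 20 and 6 cells, with 21.8% of those of library 1 in 1 cell. Egfr had 290 CPM in the former and 154 CPM in the latter, Ccnd1 219 and 80.9 CPM, and Olig2 169 and 58.7 CPM. Of the activated and progenitor list 5 of 18 genes were higher in library 1 and 2 in library 2, and of ERK feedback 3 of 5 were higher in library 1. B2m, the light chain of MHC class I, stood at 144 against 46.5 CPM, with 17.1% of the UMIs of library 1 in 1 cell. Others among the named genes were Mbp, Gpd1, Mid1, Thy1, Syt4, Trib1, Dbx2, G0s2 and Rcan2. Mbp, a major myelin gene, was higher in library 1 in every group of cells. It stood at 93.9, 84.1, 86.9 and 76.1 CPM in cells at 40 or more, transition cells, cells under 15 and neuroblast gene cells of library 1 and at 20.6, 11.1, 15.9 and 15.6 CPM in library 2. Library 1 had 108 cells at or over the oligodendrocyte gene limit and library 2 had 11. Mid1 and Rcan2 likewise differed in all 4 groups, Rcan2 at 190, 195, 187 and 217 CPM against 79.9, 64.7, 58.7 and 67.1 CPM. Cdkn1c, Gpd1, B2m, Thy1, Trib1, Dbx2 and G0s2 were also higher in library 1 in all 4 groups, some by little. Cdkn1c stood at 4.86, 64.3, 32.2 and 45.7 CPM against 1.01, 8.09, 17.9 and 19.3 CPM. Syt4 was lower in library 1 in neuroblast gene cells, at 20.3 against 22.6 CPM. Egfr was higher in library 1 in both flanks too, at 88.3 and 175 CPM against 57.3 and 107 CPM.

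Of the genes higher in library 2, Prss56, a trypsin-like protease, stood at 23.4 CPM (14.3 to 36.1) in 11 cells of library 1 and 288 CPM (256 to 324) in 62 cells of library 2. In cells at 40 or more it was 287 and 210 CPM. Without the stress gene limit the difference was smaller, with a log2 ratio of library 1 over library 2 of -1.87 in place of -3.62. Gfap, the astrocyte filament gene, stood at 9.35 against 97.1 CPM, and at 55.0 against 247 CPM in cells at 40 or more. Pax6, a factor of dorsal progenitors, stood at 52.6 against 194 CPM, and was also higher in library 2 in cells under 15, at 60 against 203 CPM, and in neuroblast gene cells, at 156 against 439 CPM. Sfrp1, a secreted Wnt modulator, stood at 39.7 against 193 CPM. It was higher in library 2 in every group, at 92.1 against 203 CPM in cells at 40 or more. In cells under 15 it was 19.3 against 73.2 CPM, and in neuroblast gene cells 12.3 against 39.2 CPM. Of 6 measured Wnt genes, 4 were higher in library 2 and none in library 1. Notch2 stood at 18.7 against 88.0 CPM, while Notch1 stood at 172 against 153 CPM. Rarres2, one of the ependymal markers, stood at 5.84 against 88.0 CPM, with 19.5% of the UMIs of library 2 in 1 cell, and its log2 ratio went from -3.91 to -2.29 without cells that had other types' markers. The other named genes were Shisa2, Riiad1, Kcnk2, Prrx1, Entpd2 and S100a6.

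**Figure D5:**
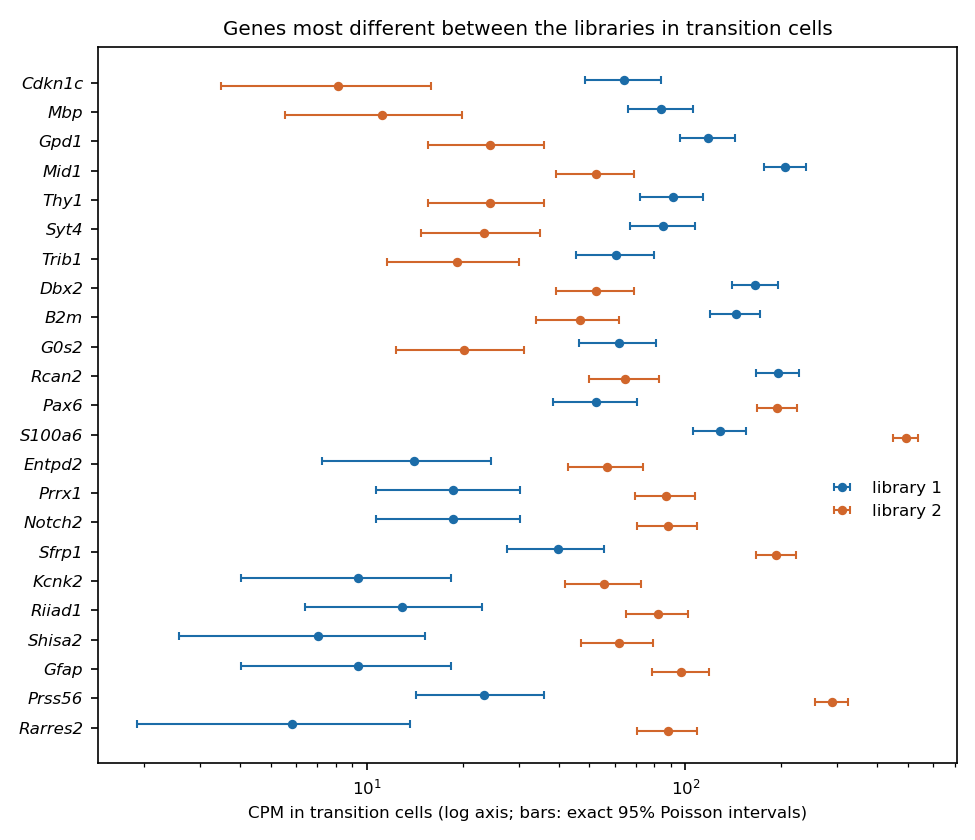
CPM in transition cells of library 1 and library 2 (horizontal log axis) of genes among the 24 most different between them (vertical axis), with exact 95% Poisson intervals. Cdkn1c stands at 64.3 and 8.09 CPM, and Prss56 at 23.4 and 288 CPM.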

How the data were processed

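Single-cell 3' RNA-seq counts of 2 libraries, 1 per age, were used. The authors deposited a matrix of raw UMI counts, with 1 row per gene and 1 column per barcode, for 27998 genes, of which 18470 had a UMI. Cell Ranger 2.0.0, GRCm38.p3 and mm10 are named in the submitters' processing notes, with no role given. How cells were called or libraries merged is not stated. Library totals were 10440891 and 13330251 UMIs, with medians of 4463 and 5763 per cell, which limits single-cell statements to counting error.

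UMIs were summed over the cells of a band and library and scaled to CPM, with exact 95% Poisson intervals. For shares, Clopper-Pearson intervals at 95% are given. A side at 0 was set to 3 counts for a ratio, which makes it a bound. No test was made. A gene was called at 1.5-fold in both libraries, or at a ratio over 25% from 1 for lying above or below both flanks. Genes below both flanks needed 50 UMIs in each flank of each library. Cells were thinned to 2000 UMIs for shares, and shallower cells left out. Doublets were marked by Scrublet with an expected rate of 1.5%. Neighbours were found within each library from 2000 variable genes. The tools were Python 3.11.15, numpy 2.4.6, scipy 1.17.1, pandas 2.3.3, scanpy 1.11.5, scikit-learn 1.9.0 and matplotlib 3.10.9, and the scripts were checked on simulated data.

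The members, the 44 gene lists (987 memberships) and the rules were chosen with earlier results of these data known. Named genes were the rule genes, the markers, the 12 furthest above and up to 12 below both flanks, the 8 highest and 8 lowest against each flank, the 12 highest and 12 lowest between libraries, and list members with a described role, otherwise a list's most and least different measured member. Other genes named were chosen after their values were seen. Some genes that the rule names are not reported here. Alternatives were the mitochondrial limit, a gene minimum, doublets, the band limits, thinning before the band was cut, cycling cells, other types' cells, the mean over cells, the low-count filter and the neighbour settings. Leaving out other types' cells with Olig1 not counted, leaving out cells with division genes and dropping the stress gene limit were chosen after seeing the data.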

Additional observations from a re-analysis of the deposited data

Results flagged for a closer look

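For 6 of the named genes the transition cells differed from a flank by at least 1.5-fold in opposite ways in the libraries. With 1 library on each side this difference was not tested. Against cells under 15, Cdkn1c had a log2 ratio of 1.00 in library 1 and -1.14 in library 2, Syt4, which encodes a synaptotagmin, of 1.00 and -0.82, and Rarres2 of -1.26 and 1.24. Against cells at 40 or more, Ecel1, a membrane metalloprotease gene, had -1.49 and 1.13, Notum -0.60 and 1.05, and Thy1, a surface glycoprotein gene, 0.97 and -0.93. Each flank was measured in the same library as the transition cells. Cdkn1c had 8 UMIs in the transition cells of library 2 and Rarres2 5 in those of library 1. Hmmr, with 1 UMI in the transition cells of library 1, was not counted among the 6. Against cells at 40 or more it had -0.68 and 1.30. Groups of 4 or more samples, in which a single outlying sample could be sought, did not exist here.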

How the results depend on the processing

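No paired analysis was possible because there was 1 library per age and no test. Nearly all list medians (1972 of 2077 values under the alternatives) and named genes (969 of 996) kept their direction and moved little, and the number of immediate early genes above both flanks was 9 to 18 over the alternatives, against 14. With each cell thinned to 2000 UMIs before the band was cut, the band held 199 (16.1%) and 270 (17.5%) cells, 519 genes were higher and 258 lower than under 15, 31 were above both flanks, and 71 and 95 were higher in library 1 and 2; Tpgs2 (0.17) and Hist1h4i (0.71) then had a log2 ratio above 0 for a flank. With the band from 20, it held 63 cells of library 1 (5.25%), 7.22% in library 2, and 54 genes above and 22 below both flanks, with 109 and 137 higher in library 1 and 2. Many of these calls between libraries were other genes than in the main setting. After thinning, 29 of the 71 and 48 of the 95 were shared with it, and with the band from 20, 57 of the 109 and 90 of the 137. With the band to 30, its share was 8.07% in library 2. The genes below both flanks numbered 11 without marked doublets and 12 without cells of other types, Olig1 counted or not. Without low-count filters 3624 genes were higher than at 40 or more, 4144 higher than under 15, 714 above and 84 below both flanks, 3252 higher in library 1 and 2743 in library 2, and the Wnt list's median between libraries was 0.12 in place of -0.97. Leaving out cells with 3 UMIs of S, G2 and M phase genes left 12 (5.22%) and 10 transition cells, too few (under 20) for gene values, which were not computed. Among alternatives chosen after seeing the data, leaving out cells with division genes gave a share of 13.1% in library 2, 902 genes higher and 304 lower than under 15, 64 above and 3 below both flanks, with log2 ratios of 0.23 for Nuf2, 0.010 for Ncam1, 0.21 for Gtse1 and 1.01 for Hist1h2ai. Without the stress gene limit the share was 12.4% in library 1, 10 genes were below both flanks and 351 higher in library 1. Cycling shares were 10.6% and 20.1% by division genes, 96.5% and 97.5% at 2 UMIs, and 98.3% and 99.4% without thinning. The cause of these shifts was not tested.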
